A study of Homo sapiens with 10 samples.

Results

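The C/EBP transcription factors and GFI1 were examined in MV4-11 cells, an acute myeloid leukemia (AML) cell line of the monocytic subtype, with and without the transcription factor IRF8. The members were taken by symbol from the table of normalized counts. They are CEBPA, CEBPB, CEBPD, CEBPE, CEBPG, CEBPZ and GFI1, 7 of the 19590 genes in the table. RNA-Seq was compared between MV4-11 cells infected with a control vector (4 libraries, replicates 1 to 4) and IRF8 KO cells (4 libraries, replicates 1 to 4), all grown in the same medium without further treatment. The KO cells were made by lentiviral CRISPR/Cas9 with guide RNAs directed against IRF8, puromycin selection and growth of single clones. The paper describes fewer KO clones than the 4 KO libraries, made with different guide RNAs, so some KO libraries may share a clone. The sources used here do not say which clone each KO library holds, so differences between clones and between replicates cannot be told apart. They describe no cloning of the control cells, so loss of IRF8 and origin from single clones cannot be told apart either. The p-values measure only the spread between these libraries.

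C/EBP proteins bind DNA as dimers through a basic leucine zipper (bZIP). In myeloid progenitors C/EBPα opens the granulocyte and monocyte program, C/EBPε drives the late steps of granulocyte maturation, and the zinc finger repressor GFI1 favors granulocytes over monocytes. IRF8 is known to promote monocytes and to oppose granulocyte formation, in part by interfering with C/EBPα, which is why these genes are of interest in cells that have lost IRF8.

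Of the 7 members, 3 rose in the IRF8 KO cells. CEBPE rose from a low to a substantial level, CEBPD rose several-fold, and GFI1 rose slightly. CEBPA, CEBPB, CEBPG and CEBPZ did not pass the test. The test was limma on log2(normalized count + 1), and a gene was called at an adjusted p below 0.05. It covered the 13110 genes that averaged 10 normalized counts or more over all libraries, which includes the 7 members. By the same rule 18.2% of all tested genes were called, 8.65% as higher and 9.56% as lower. The KO libraries did not overlap the control libraries for these 3 members, and they overlapped for the other 4, while 25.3% of all tested genes had groups without overlap, 12.3% with the KO group higher and 13.0% with it lower. No member fell by limma at an adjusted p below 0.05 (0 members), and the count was also 0 at an unadjusted p below 0.05, and 0 by edgeR and by DESeq2 on the recovered reads.

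The depth was 39560072 to 65519047 reads on genes per library. Markers of the labelled cell type were present, as CD33, ANPEP, PTPRC, SPI1, FLT3, CD4, ITGAX and LYZ passed the filter, with a summed level of 77121 to 90888 normalized counts in the control and 109265 to 343497 in the KO libraries. Of 12 markers of erythroid, lymphoid, epithelial, stromal and endothelial cells, 8 stayed below 7 normalized counts in every library, 3 of them at 0. The other 4 passed the filter. The summed level of all 12 was 715 to 1060 in the control and 1114 to 2154 in the KO libraries. Its part in the results below was not tested. IRF8 itself was measured at 36891, 15192, 43016 and 22535 normalized counts in control replicates 1 to 4 and at 6377, 2401, 12903 and 7820 in KO replicates 1 to 4. The groups did not overlap, and the KO mean was 25.1% of the control mean (log2 fold change -2.11 ± 0.51 (SE, n = 4), limma adjusted p = 0.022). It was 0.053 without KO replicate 1, 0.058 without control replicate 1 and 0.057 without control replicate 3. The paper reports that the KO clones lacked IRF8 protein by Western blot and that IRF8 was lost from its target genes by ChIP. The IRF8 RNA left in the KO libraries is therefore not a measure of its protein. In bulk RNA, fewer cells of a type and less RNA per cell cannot be told apart, and this holds for every level below.

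In both groups, replicates 1 and 3 differed from replicates 2 and 4 for many genes, IRF8 among them. The labels do not say what sets these libraries apart. For IRF8 the control mean was 2.12 times as high in replicates 1 and 3 as in replicates 2 and 4, and the KO mean 1.89 times as high. Each member is therefore also described within these pairs of replicates, which were chosen after the data were seen and carry no test.

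**Figure D1:**
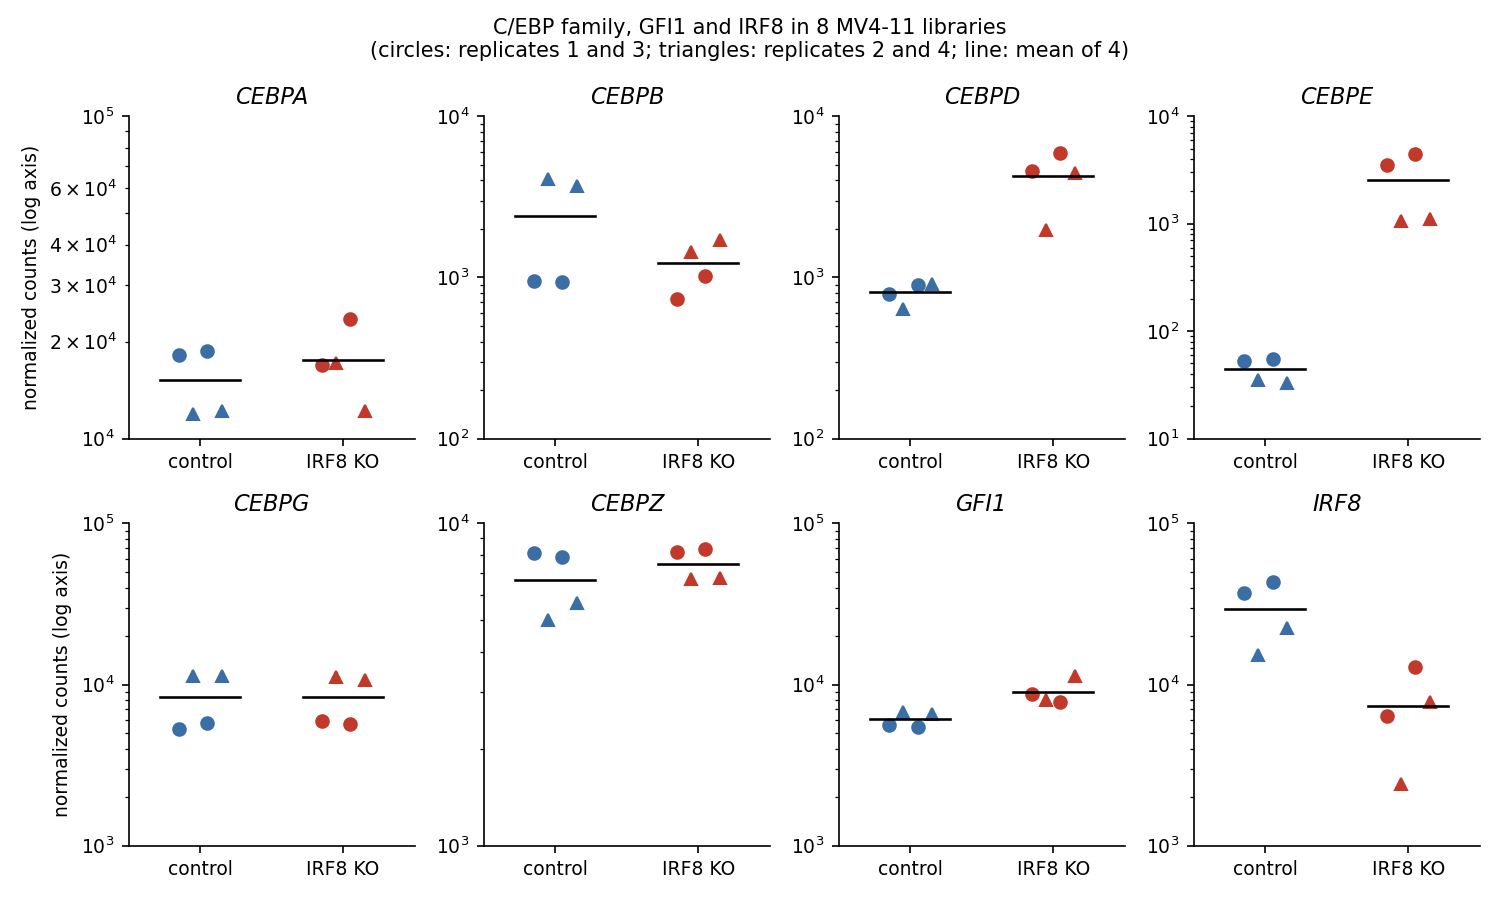
Normalized counts (log axis) of the 7 members and IRF8 in each of the 8 libraries, with control in blue, IRF8 KO in red, circles for replicates 1 and 3, triangles for replicates 2 and 4 and a line at the mean of 4. The KO points lie above all control points for CEBPE, CEBPD and GFI1, while CEBPG and CEBPB separate by replicate number in both groups.

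The promoters of the members were read from RefSeq (GRCh38.p14), which held a window of 250 bases before to 50 bases after the gene start for every member except CEBPD, 10 windows in all. They were searched on both strands for 5 short motifs. Shown here are the 250 bases before the start of CEBPE, the member with the largest change, and of the GFI1 window that held a C/EBP motif, both written 5′ to 3′ on the strand of the gene. Capitals mark the core GAGGAA of the ETS factor PU.1 in CEBPE and a C/EBP site (TTNNGCAA) in GFI1.
CEBPE, chr14:23119256-23119505, minus strand: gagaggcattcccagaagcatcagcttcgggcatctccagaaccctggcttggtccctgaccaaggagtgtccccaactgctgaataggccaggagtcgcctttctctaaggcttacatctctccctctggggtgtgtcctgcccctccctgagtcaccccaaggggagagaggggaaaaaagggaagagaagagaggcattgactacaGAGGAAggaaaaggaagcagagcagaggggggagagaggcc
GFI1, chr1:92486100-92486349, minus strand: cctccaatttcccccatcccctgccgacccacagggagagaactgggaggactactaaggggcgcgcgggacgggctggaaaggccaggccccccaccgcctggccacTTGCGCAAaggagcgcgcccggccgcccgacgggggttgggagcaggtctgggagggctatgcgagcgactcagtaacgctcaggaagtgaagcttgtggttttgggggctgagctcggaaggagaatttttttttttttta

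The core GAGGAA lay 41 bases upstream of the CEBPE start, and 3 of the 10 member windows held it, against 27.9% of 35116 windows of the same 300 bases over all genes. TTNNGCAA was found in 1 of the 10 windows, 142 bases upstream of a GFI1 start, against 10.5% of all windows. Its match reads the same on both strands and overlaps no other motif searched. The core of the interferon-stimulated response element (GAAA, any 2 bases, GAAA), the composite ETS-IRF element (GGAA, any 2 bases, GAAA) and the GFI1 core (AATCAC) were in 0 of the 10 windows, against 3.57%, 2.82% and 10.2% of all windows. These letters were searched only in these windows, and a match or its absence is a description of the sequence.

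CEBPE was low in the control cells and strongly expressed in the IRF8 KO cells. Its gene, on chromosome 14, encodes the C/EBP factor of late granulocyte maturation. The level was 53.1, 35.4, 54.8 and 33.0 normalized counts in control replicates 1 to 4, which rests on 35 to 66 reads per library. In the KO libraries it was 3524, 1056, 4480 and 1118, on 1105 to 3308 reads. Every KO library was thus far above every control library, and KO replicates 1 and 3 stood above KO replicates 2 and 4. The mean rose from 44.0 ± 11.5 (SD, n = 4) to 2544 ± 1728 (SD, n = 4), a ratio of 57.8. The log2 fold change was 5.56 ± 0.49 (SE), with a 95% interval of 4.44 to 6.69 and a limma adjusted p of 2.2e-04. The exact two-sided permutation test gave p = 0.029, the smallest that 4 against 4 libraries allow. Only 18 of the 13110 tested genes, CEBPE included, rose by at least as much, which is 0.137%. Within replicates 1 and 3 the ratio was 74.2, and within replicates 2 and 4 it was 31.8. The KO level itself was 3.68 times as high in replicates 1 and 3 as in replicates 2 and 4, against 1.58 times in the control.

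CEBPD, on chromosome 8, encodes a C/EBP factor induced by cytokines and in inflammation. It was at 792, 633, 897 and 907 normalized counts in the control replicates and at 4605, 1958, 5954 and 4441 in the KO replicates. KO replicate 2 was the lowest of its group and still above every control library. The mean rose from 807 ± 127 (SD, n = 4) to 4240 ± 1665 (SD, n = 4), a ratio of 5.25. On the log2 scale the change was 2.30 ± 0.32 (SE), with a 95% interval of 1.58 to 3.02 and a limma adjusted p of 0.0017, and 1.83% of tested genes rose by at least as much. It was 2.63 within replicates 1 and 3 and 1.96 within replicates 2 and 4. Without the median change of chromosome 8, which was 0.09, the log2 fold change was 2.22.

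GFI1, on chromosome 1, was already abundant in the control cells. Its level was 5629, 6728, 5489 and 6522 normalized counts in the control replicates and 8732, 7998, 7830 and 11319 in the KO replicates. The groups were apart by a small margin, and KO replicate 4 was the highest library. The mean rose from 6092 ± 624 (SD, n = 4) to 8970 ± 1614 (SD, n = 4), a ratio of 1.47. This is a log2 fold change of 0.55 ± 0.15 (SE), with a 95% interval of 0.21 to 0.88 and a limma adjusted p of 0.032, and 14.6% of the tested genes rose by at least as much. The replicates 1 and 3 and the replicates 2 and 4 gave ratios of 1.49 and 1.46. The call depended on single libraries. The adjusted p was 0.069 without KO replicate 1, 0.069 without KO replicate 4, where the log2 fold change was 0.43, 0.087 without control replicate 1, 0.087 without control replicate 3 and 0.058 without control replicate 4. The close paralog GFI1B did not exceed 21.6 normalized counts in any library and had too low a mean to be tested.

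**Figure D2:**
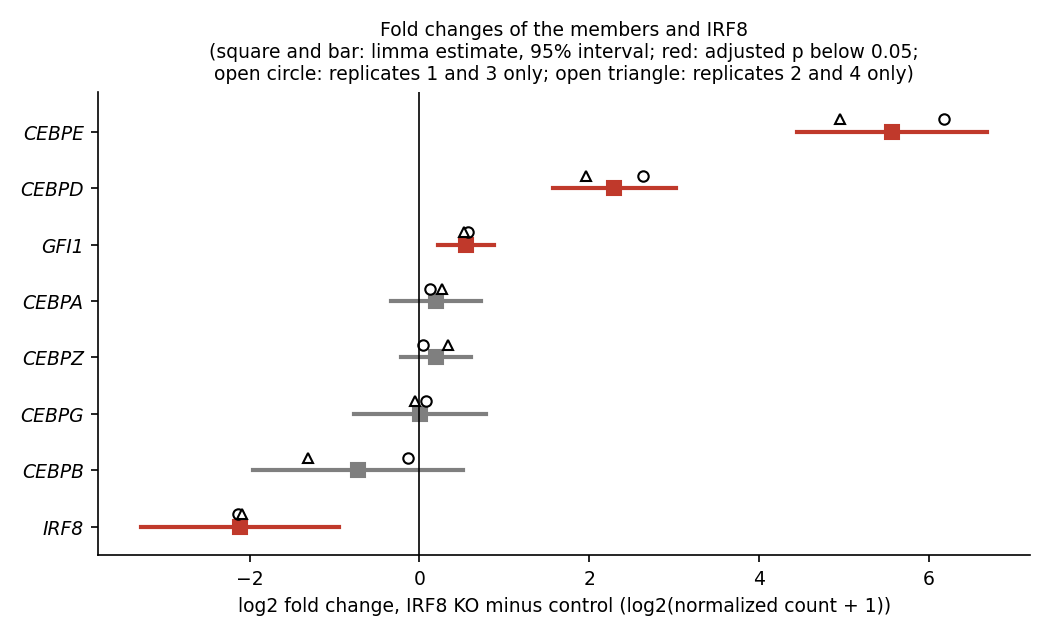
Log2 fold change of the 7 members and IRF8, IRF8 KO minus control, as the limma estimate with its 95% interval (squares and bars, red where the adjusted p is below 0.05) and as values within replicates 1 and 3 (open circles) and replicates 2 and 4 (open triangles). CEBPE and CEBPD lie well above 0 in every estimate and GFI1 lies close to 0.55, while the intervals of CEBPA, CEBPZ, CEBPG and CEBPB include 0.

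CEBPA, the C/EBP factor that acts first in granulocyte and monocyte formation, was the most abundant intronless member and showed no called difference. It lies on chromosome 19 and was at 18165, 11888, 18636 and 12146 normalized counts in the control and at 16948, 17190, 23572 and 12185 in the KO replicates. The groups overlapped over most of their range, with control replicates 2 and 4 and KO replicate 4 at nearly one level. The control mean was 15209 ± 3692 and the KO mean 17474 ± 4673 (SD, n = 4 each). The log2 fold change was 0.19 ± 0.23 (SE; limma adjusted p = 0.64), with a 95% interval of -0.34 to 0.72.

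CEBPB, a C/EBP factor of macrophages and of granulocyte production under stress, was lower on average in the KO cells, but its control level split by replicate. The control replicates were at 951, 4084, 943 and 3710 normalized counts and the KO replicates at 734, 1438, 1017 and 1703. All KO libraries were below control replicates 2 and 4, and KO replicates 2, 3 and 4 were above control replicates 1 and 3. The log2 fold change was -0.72 ± 0.54 (SE; limma adjusted p = 0.42), with a 95% interval of -1.96 to 0.51. Within replicates 1 and 3 it was -0.13, and within replicates 2 and 4 it was -1.31. A covariate for the pairs of replicates left the estimate as it was and cut its SE to 0.24 (limma adjusted p = 0.044). These pairs were chosen after the data were seen, so that p-value cannot be read as a test. The replicate block gave a limma adjusted p of 0.076.

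CEBPB lies on chromosome 20, where 351 genes were tested and the middle value of their log2 fold changes was -0.92. The chromosome medians of the 4 KO libraries, relative to the control mean, were between -0.95 and -0.91. Of the tested genes on chromosome 20, 67.0% were at or below CEBPB in log2 fold change. Set against the chromosome median, the difference of CEBPB was 0.20 ± 0.55 (SE; limma adjusted p = 0.86), with 0.81 within replicates 1 and 3 and -0.40 within replicates 2 and 4. The part of the chromosome in the CEBPB value was not tested. The chromosomes of the other members had medians between -0.08 and 0.09, and the calls of CEBPE, CEBPD and GFI1 held relative to them.

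**Figure D3:**
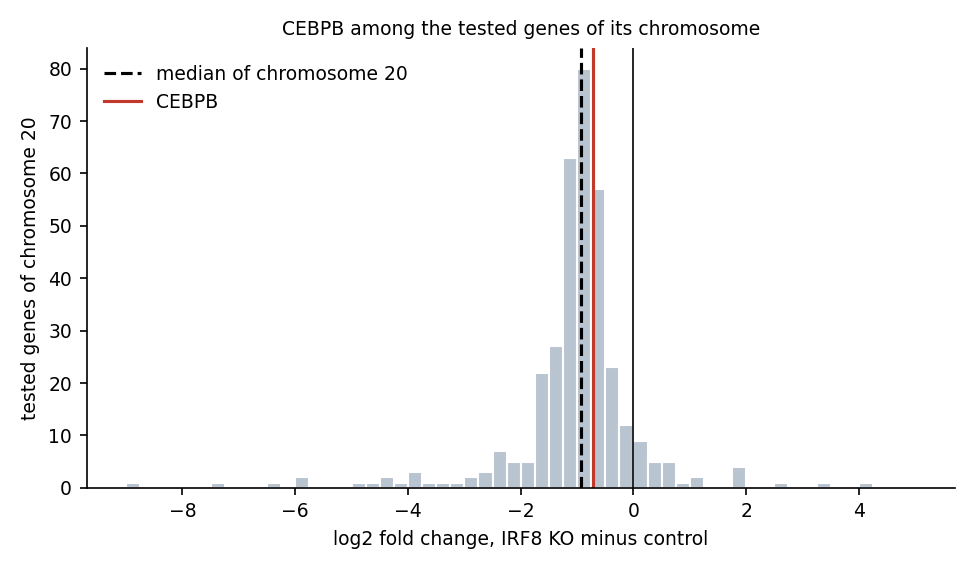
Histogram of the log2 fold change (IRF8 KO minus control) of the 351 tested genes of chromosome 20, as number of genes per bin. The dashed line marks their median of -0.92 and the red line CEBPB at -0.72, which lies close to the median and inside the main peak.

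CEBPG and CEBPZ differed by replicate number in both groups and were not called between genotypes. CEBPG encodes a short C/EBP protein without an activation domain that pairs with other bZIP proteins such as ATF4. It was at 5270, 11260, 5743 and 11318 normalized counts in the control and at 5924, 11148, 5662 and 10625 in the KO replicates. Libraries of the same number were close to each other, and replicates 2 and 4 were 2.05 times as high as replicates 1 and 3 in the control and 1.88 times in the KO cells. The log2 fold change was 0.01 ± 0.34 (SE; limma adjusted p = 0.99), with a 95% interval of -0.76 to 0.79. CEBPZ carries the family name but no leucine zipper, and its protein works in the nucleolus. It was at 8115, 5010, 7845 and 5671 in the control and at 8133, 6720, 8323 and 6767 in the KO replicates, higher in replicates 1 and 3 in both groups. Its log2 fold change was 0.19 ± 0.18 (SE; limma adjusted p = 0.53), with a 95% interval of -0.22 to 0.60. CEBPZ overlaps CEBPZOS on the opposite strand. The kit keeps the strand, but the sources used here do not say whether the counting used it, so the value of either gene may hold reads of the other. CEBPZOS was between 1817 and 2094 normalized counts in all 8 libraries, and its log2 fold change was 0.03.

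The order of the C/EBP genes was compared per length of the gene for CEBPA, CEBPB, CEBPD and CEBPE, whose genes hold no intron or, for CEBPE, an intron that counts toward the length used. In the control cells the level per kb was 5847 ± 1420 (SD, n = 4) for CEBPA, 1149 ± 811 for CEBPB, 645 ± 101 for CEBPD and 22.6 ± 5.89 for CEBPE. CEBPA was above the others and CEBPE below them in 4 of 4 control libraries, while CEBPB was above CEBPD in 2 of 4. In the KO cells the level per kb was 6718 ± 1797 for CEBPA, 3386 ± 1330 for CEBPD, 1305 ± 886 for CEBPE and 580 ± 205 for CEBPB. CEBPD was below CEBPA and above CEBPE in 4 of 4 KO libraries, although the ranges of these neighbors overlapped. CEBPB was below CEBPD in 4 of 4 KO libraries without overlap, and above CEBPE in 2 of 4. As a share of the reads on the 5 bZIP members, CEBPE went from 0.166% to 7.26% (3.22% to 11.1% in single KO libraries) and CEBPD from 3.01% to 12.5%, while CEBPA made up 57.2% and 51.1%.

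**Figure D4:**
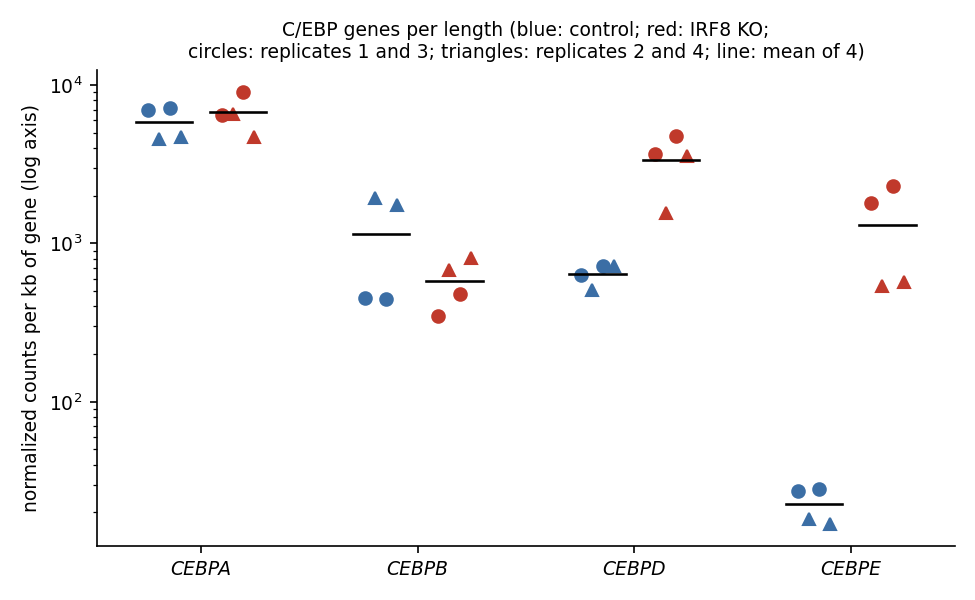
Normalized counts per kb of gene (log axis) for CEBPA, CEBPB, CEBPD and CEBPE in each library, with control in blue, IRF8 KO in red, circles for replicates 1 and 3, triangles for replicates 2 and 4 and a line at the mean of 4. CEBPE moves from 22.6 per kb, far below the other genes, to 1305 per kb, into the range of CEBPB and CEBPD, and CEBPA stays highest.

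Genes with functions close to those of the members were described next, by lists of known partners, regulators and target genes. Over all tested genes, 8.65% were called higher and 9.56% lower, and every list count below stands beside these shares. Among 22 other bZIP factors, 19 were tested, 1 rose and 1 fell, and the median log2 fold change was -0.06, beside -0.00094 over all tested genes. JUN rose (log2 fold change 1.07 ± 0.31 (SE), limma adjusted p = 0.042) from 281.6, 428.7, 282.4 and 251.4 normalized counts in the control to 703, 437, 1101 and 499 in the KO replicates. Without KO replicate 1, 3 or 4 or control replicate 1, 3 or 4, its limma adjusted p was 0.056 to 0.10. FOSL1 fell by 0.70 on the log2 scale (SE 0.15, limma adjusted p = 0.011). JUND had a log2 fold change of -0.83 with a limma adjusted p of 0.071, which was 0.0045 with the replicate block and 0.037 without KO replicate 2. The AP-1 genes JUNB and FOSL2 were more abundant than JUN and had log2 fold changes of 0.25 and -0.06 (limma adjusted p = 0.19 and 0.87). With the block, 4 bZIP genes were called lower.

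The stress-related bZIP genes ATF5, DDIT3, ATF3 and ATF4 differed by replicate number in both groups, like CEBPG and CEBPB. ATF5 was 7.82 times as high in replicates 2 and 4 as in replicates 1 and 3 of the control and 7.64 times in the KO cells. For DDIT3 (CHOP), which pairs with C/EBP proteins, these ratios were 6.56 and 4.20, and for ATF3 they were 5.41 and 3.01. ATF4, which partners with CEBPG, was higher in replicates 2 and 4 by ratios of 1.44 and 1.47. Between genotypes the log2 fold changes of these 4 genes were between 0.15 and 0.20, with limma adjusted p-values between 0.67 and 0.94. ATF3 and DDIT3 were picked after their values had been seen.

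Of 7 genes that act on the stability or translation of C/EBP proteins, 1 rose and 1 fell, with a median of -0.16. Over all tested genes, 8.65% were called higher and 9.56% lower. The called genes of this list belong to the Tribbles family, whose proteins bring C/EBPα to the ubiquitin ligase COP1. TRIB1 rose from 635, 519, 407 and 501 to 936, 1050, 1411 and 839 normalized counts (log2 fold change 1.03 ± 0.20 (SE), limma adjusted p = 0.0086). TRIB2 fell from 306, 318, 311 and 401 to 100.2, 57.3, 123 and 191 (log2 fold change -1.61 ± 0.34 (SE), limma adjusted p = 0.012). The groups did not overlap in either gene. TRIB3, a stress gene on chromosome 20, was at 1006 to 20079 in the control and at 1233 to 10995 in the KO cells (log2 fold change -0.24, limma adjusted p = 0.93). CALR, whose product binds CEBPA mRNA, had a log2 fold change of 1.11 with a limma adjusted p of 0.094, which was 0.0016 with the replicate block, so that the block called 2 genes of this list higher.

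The granulocyte list holds 32 genes, many of them known targets of C/EBP factors, and 22 were tested. Of these, 10 rose and 1 fell, and the median log2 fold change was 1.93. Over all tested genes, 8.65% were called higher and 9.56% lower. FCAR, FPR1, HP and TCN1 had control means of 0.451, 1.34, 9.21 and 5.75 and passed the filter only through their KO levels. LTF and S100A12 had KO means of 4.89 and 4.12 and passed it only through their control levels. The filter thus favored a rise for the former and a fall for the latter, and both enter the counts and the median. Among genes of the azurophil granules, which form early in the granulocyte lineage, ELANE, MPO, CTSG, PRTN3 and AZU1 rose and BPI did not pass the test. ELANE (neutrophil elastase) was at 2839 to 2922 normalized counts in the control and at 58196, 24555, 36883 and 31207 in the KO replicates, 13.2 times the control mean (log2 fold change 3.64 ± 0.23 (SE), limma adjusted p = 4.1e-05). MPO (myeloperoxidase) went from 767 ± 54.6 to 13378 ± 3888 (SD, n = 4), a ratio of 17.4. CTSG, PRTN3 and AZU1, the remaining serine proteases and their inactive relative, rose by 3.30, 2.88 and 1.54 on the log2 scale. For CTSG and PRTN3 the control levels also differed by replicate, with CTSG 4.37 times as high and PRTN3 0.454 times as high in replicates 2 and 4. BPI was at 10.5, 21.6, 15.0 and 35.8 normalized counts in the control and at 218, 22.9, 20.3 and 20.7 in the KO replicates, so that only KO replicate 1 stood above the control range (log2 fold change 1.00 ± 0.78 (SE), limma adjusted p = 0.43). BPI also lies on chromosome 20, and relative to the chromosome median its log2 fold change was 1.92. It was called in none of the fits. PRG2, an eosinophil granule gene, rose by 2.57 on the log2 scale.

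Genes of the specific granules, which form later and are known to need C/EBPε, differed among themselves. HP and TCN1 rose. LTF, CAMP, LCN2, MMP8, PGLYRP1, CEACAM8, CRISP3, OLFM4 and CD177, which were picked after their values had been seen, were low in both groups. In the whole list of 32 granulocyte genes, 8 stayed below 7 normalized counts in every library, 2 of them at 0. LTF (lactoferrin) was at 3.22 to 56.1 normalized counts in the control and at 0 to 17.2 in the KO cells, with a limma adjusted p of 0.25, which was 0.033 in the lower direction with the replicate block. CAMP did not exceed 34.8, and LCN2 and MMP8 did not exceed 0.984 and 6.04 in any library, so these 3 were not tested. HP (haptoglobin), also stored in these granules, rose from 0.863 to 16.1 normalized counts in the control to 43.0 to 1516 in the KO libraries (limma adjusted p = 0.016, and 0.0503 without KO replicate 3). TCN1 rose from 5.75 ± 3.77 to 22.2 ± 10.5 (SD, n = 4; limma adjusted p = 0.037), a call that was lost without KO replicate 1, 3 or 4 or control replicate 1 or 2 (0.058 to 0.10). The receptor genes FCAR and FPR1 were at 0 to 0.942 and at 0.942 to 1.72 in the control and at 12.2 to 184 and 7.65 to 37.9 in the KO libraries, with limma adjusted p-values of 0.0078 and 0.0042.

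**Figure D5:**
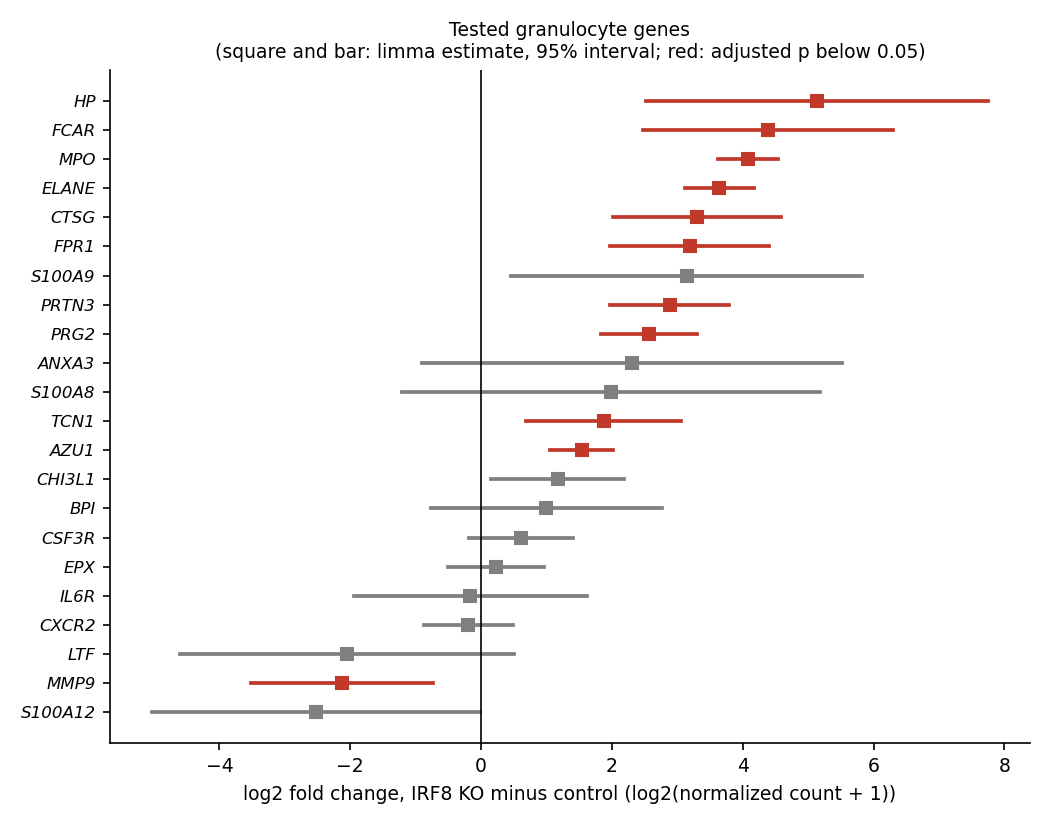
Log2 fold change (IRF8 KO minus control, limma estimate with 95% interval) of the 22 tested granulocyte genes in order of size, red where the adjusted p is below 0.05. The 10 genes that rose include the azurophil granule genes MPO, ELANE, CTSG, PRTN3 and AZU1, the interval of BPI includes 0, and MMP9 fell.

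MMP9, a gelatinase of late granulocytes, was the called gene that fell, from 1735 ± 718 to 487 ± 325 normalized counts (SD, n = 4; log2 fold change -2.12 ± 0.61 (SE), limma adjusted p = 0.043). It too lies on chromosome 20, and relative to the chromosome median its log2 fold change was -1.19 (limma adjusted p = 0.23). It also missed the threshold without any single control replicate and without KO replicate 3 or 4 (0.060 to 0.11), and by edgeR. CSF3R, the G-CSF receptor and a known C/EBPα target, was at 911 to 2139 in the control and 1155 to 2525 in the KO cells (log2 fold change 0.61, limma adjusted p = 0.28), and CHI3L1 had a log2 fold change of 1.17 (limma adjusted p = 0.11, and 0.036 with the block). The S100 genes named here were picked after their values were seen. S100A9, a calprotectin subunit, was at 505, 21.6, 886 and 255 in the control and at 5839, 402, 2244 and 2984 in the KO replicates. Each KO library exceeded the control library of the same number, and the limma adjusted p of 0.10 became 0.0022 with the block. For its partner S100A8 these values were 0.38 and 0.028. S100A12, a relative in the same list, went the other way, with 40.2, 1.72, 81.6 and 19.8 in the control and 10.7, 2.87, 0 and 2.95 in the KO replicates (log2 fold change -2.52 ± 1.10 (SE), limma adjusted p = 0.16), and it was called lower by DESeq2 (adjusted p = 0.030) and by limma without control replicate 2 (adjusted p = 0.029).

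GFI1 acts through the demethylase KDM1A (LSD1), CoREST proteins and histone deacetylases. Of 14 genes for corepressors and partners of GFI1, all of them tested, 1 rose, and the median log2 fold change was -0.07. Over all tested genes, 8.65% were called higher and 9.56% lower. The gene that rose was GSE1 (1.28 ± 0.24 (SE), limma adjusted p = 0.0073), which is a neighbor of IRF8 on chromosome 16. In this list 0 genes fell by limma at an adjusted p below 0.05, 1 (ZBTB17) at an unadjusted p below 0.05, and 0 by edgeR or DESeq2. KDM1A was at 11169 ± 1857 normalized counts in the control and 11131 ± 1374 in the KO cells (SD, n = 4), and HDAC2 at 24506 ± 446 and 21947 ± 1885, with limma adjusted p-values of 0.99 and 0.31. Among 16 genes known as repressed by GFI1, 14 were tested, 1 rose, 2 fell and the median was 0.04, beside the same shares over all tested genes. The gene that rose was ELANE, which is also in the granulocyte list. NAB2, a partner of the EGR factors, fell by 0.88 on the log2 scale (limma adjusted p = 0.013), and MEIS1, a homeobox factor of leukemia stem cells, fell by 0.56 (limma adjusted p = 0.029). MEIS1 lost its call without any control replicate and without KO replicate 1, 3 or 4 (limma adjusted p = 0.053 to 0.079). With the block 3 genes of the list were called higher.

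Genes of monocytes and macrophages, the lineage that IRF8 favors, went in both directions. Of 20 genes, 16 were tested, 3 rose and 4 fell, with a median of 0.65. Over all tested genes, 8.65% were called higher and 9.56% lower. CD68 (1.83), FCGR1A (0.89) and CTSS (0.68) rose on the log2 scale. MPEG1, which encodes a pore-forming protein of macrophages, went from 2033, 452, 1639 and 919.9 normalized counts in the control to 25.6, 2.87, 9.48 and 11.8 in the KO replicates (log2 fold change -6.65 ± 0.64 (SE), limma adjusted p = 3.2e-04). MS4A7, VCAN and CCR2 fell, with log2 fold changes of -3.86, -3.27 and -2.64. CCR2 missed the threshold without KO replicate 3 or 4 or control replicate 1 or 3 (limma adjusted p = 0.061 to 0.070). By edgeR and by DESeq2, 4 genes of this list rose and 4 fell. The added gene was KLF4, a monocyte transcription factor that was picked after its values were seen. With the block 6 genes of this list rose and 5 fell. Among the markers of the line, CD4, which monocytic cells carry, rose by 2.46 on the log2 scale, PTPRC by 1.34 and ANPEP by 1.20. PTPRC missed the threshold without KO replicate 1, 3 or 4 or control replicate 1 or 3 (limma adjusted p = 0.051 to 0.071). SPI1 (PU.1), the partner of IRF8 on ETS-IRF elements, and FLT3 had log2 fold changes of 0.29 and -0.21 with limma adjusted p-values of 0.40 and 0.48. LYZ was at 3.09 (limma adjusted p = 0.060, 0.0021 with the block and 0.037 without KO replicate 2). Of the line markers, 0 were called lower by limma, edgeR or DESeq2, and 1 (CD33) was called lower with the block.

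For each member, the genes with the most similar profile over the 8 libraries were listed by Pearson's r of log2(normalized count + 1), among 10985 genes with a mean of at least 100. The 8 points share the 2 genotypes and the same split by replicate, so such values describe the profile only. For CEBPE they were NDUFA13, DGLUCY and SDF4 (r = 0.99 each), all of which are higher in the KO cells, and for CEBPD they were MBOAT1 (r = 0.996), TYW1B and HMGN5 (0.99 each). GFI1 was most like LYPLA1 (0.99), RABL2A and VPS54 (0.98 each). CEBPG was most like MARS, ATF5 and CYP2R1 (0.99 each). MARS encodes the cytosolic methionyl-tRNA synthetase, and like ATF5 it showed almost no difference between genotypes (log2 fold change -0.03). CEBPB was most like H1F0, SUPT3H and ARAP2 (0.99 each), CEBPA like ASB6 (0.98), MPLKIP and HPS6 (0.97 each), and CEBPZ like PSMD1, POLE2 and SETMAR (0.99 each).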

How the data were processed

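MV4-11 RNA-Seq libraries were made by the authors with a stranded mRNA kit, aligned with RNA-Star to GENCODE annotation, counted per gene with featureCounts and normalized with DESeq2. The deposited signal of 19590 genes (2197 at 0 throughout) is the read count over a size factor. Each library's read unit was recovered from its lowest values, and 100% of values were whole multiples of it within 0.01 reads. Columns named WT were matched to control replicates by number, and 0 columns were left out. The authors' table of the comparison (fold changes, SE, Wald scores, p-values) and the ChIP-Seq samples were not used here.

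limma 3.58.1 in R 4.3.3 (trend, robust) was fitted on log2(normalized count + 1) to the 13110 genes averaging 10 or more, with Benjamini-Hochberg adjustment over all of them. This scale understates the change of low genes. Intervals are limma's at 95%. On the recovered reads, the number of genes called was 2333 by edgeR 4.0.16 (quasi-likelihood) and 3402 by DESeq2 1.42.0, against 2387 by limma. Alternatives covered pseudocount, filter, scaling, test, chromosome medians, replicate block, a covariate for replicates 1 and 3 against 2 and 4, and each library left out. The split used by the covariate was taken from these same data, so its p-values and counts of genes called are a description only. Leaving out a library gave limma fits of 3 against 4.

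The deviations of same-numbered control and KO libraries correlated across genes at 0.37, 0.48, 0.45 and 0.50. The labels do not say what a number marks. Replicates 1 and 3 deviated together across genotypes too (0.41 and 0.47), as did 2 and 4 (0.41 and 0.40). The data thus set replicates 1 and 3 apart from 2 and 4. KO replicate 1 correlated more strongly with control replicate 3 than with control replicate 1 (0.41 against 0.37). KO replicate 3 likewise did so with control replicate 1 more than with control replicate 3 (0.47 against 0.45). Seen from control replicate 3, the same number was the stronger (0.45 against 0.41). The replicate block takes same-numbered libraries as pairs, which the data did not single out for replicates 1 and 3.

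Genes named are the members and IRF8, every called list gene except 1 that is not reported here, up to 5 more of a list by highest mean, the 3 most similar genes of each member, and overlapping or paralogous genes. The members and lists were chosen with earlier results of these data known. Genes picked after their values were seen are named as such. Chromosomes and promoters came from RefSeq (GRCh38.p14), which placed 13003 of the tested genes. The scripts were tested on simulated data.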

Additional observations from a re-analysis of the deposited data

Results flagged for a closer look

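Libraries were compared within each group of 4 by Dixon's quotient, the gap of the highest or lowest value to its nearest neighbor over the whole range of the group, at its 95% limit. Of 118 such groups of the genes named, 7 passed, and chance alone gives about 5%. None of them concerned a C/EBP gene, GFI1 or IRF8. FCAR in the KO cells had a quotient of 0.962, with 184 normalized counts in replicate 1 and 12.2 to 18.7 in the others. BPI in the KO cells had a quotient of 0.987, from the same library (218, against 20.3 to 22.9). LYZ in the KO cells had a quotient of 0.891, again from replicate 1 (248604, against 13767 to 39385). NAB2 in the KO cells had a quotient of 0.909 from replicate 3 (1119, against 757 to 790.5), and CSF3R in the KO cells a quotient of 0.909, also from replicate 3, which was low (1155, against 2401 to 2525). LTF in the KO cells had a quotient of 0.921 from replicate 2 (17.2, against 0 to 1.35). TRIB2 in the control had a quotient of 0.875 from replicate 4 (401, against 306 to 318). What sets these libraries apart in these genes was not tested.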

How the results depend on the processing

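CEBPE and CEBPD kept their direction and stayed past the threshold under all 21 alternatives. Members called numbered 2 to 4 over these. CEBPB passed only with a covariate for replicates 1 and 3 against 2 and 4 (log2 fold change -0.72, limma adjusted p = 0.044). That split was chosen after the data were seen, so this pass carries no test. The CEBPB estimate turned to 0.20 relative to its chromosome. GFI1 missed the threshold with quantile normalization (0.51, limma adjusted p = 0.062). Leaving out 1 library gave 0.43 to 0.61 for GFI1, -2.46 to -1.65 for IRF8 and -0.18 to 0.18 for CEBPG. Values near 0 changed sign with the tool or scaling. DESeq2, TMM, edgeR, quantile and upper quartile scaling gave -0.0088, -0.0017, -0.020, -0.025 and -0.0030 for CEBPG and -0.0012, -0.0089, -0.0070, -0.046 and -0.010 for KDM1A. DESeq2 and edgeR gave -0.050 and -0.065 for ATF3 and -0.053 and -0.068 for DDIT3. TRIB3 was at 0.68 relative to its chromosome. Without single libraries the ranges were -0.36 to 0.73 for ATF5, -0.96 to 0.48 for TRIB3, -0.11 to 0.067 for KDM1A, -0.22 to 0.62 for ATF3, -0.30 to 0.61 for DDIT3, -0.20 to 0.13 for FOSL2 and -0.0015 to 0.067 for CEBPZOS. CEBPG, KDM1A, ATF3, DDIT3, TRIB3, ATF5, FOSL2 and CEBPZOS were called in none of the fits. The cause of the changes in CEBPB and GFI1 was not tested. DESeq2 gave no adjusted p for FCAR.

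The replicate number as a block raised the genes called from 2387 to 3769, the covariate raised them to 4333, and the block changed no call of a member. List counts that moved by over 1.5 times were these. With the block, DESeq2 and the covariate, 4, 3 and 3 bZIP genes fell, 2, 2 and 2 genes of C/EBP control rose, and 3, 2 and 2 genes repressed by GFI1 rose. Granulocyte genes that fell numbered 2 with the block and DESeq2 and 0 with edgeR, limma without trend and relative to chromosomes. Monocyte genes that rose numbered 6 with the block and the covariate. Without single libraries, 0 to 1 bZIP genes rose and 1 to 2 fell, 0 to 1 granulocyte genes fell, 1 to 2 genes repressed by GFI1 fell and 3 to 5 monocyte genes rose. At 35 to 66 reads per control library, counting error is a visible part of the CEBPE control level.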
